A study of Mus musculus with 18 samples.

Results

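miR-21a is a microRNA (miRNA) whose mouse hairpin gives a mature strand from each of its arms, named miR-21a-5p and miR-21a-3p. The 3 rows with these names, mmu-mir-21a for the hairpin and one for each arm, were taken by name from the 2134 features (855 hairpins and 1279 mature miRNAs) listed in every sample. Small RNA had been sequenced from BV-2 cells, a mouse microglial cell line, in 18 samples that form 6 groups of 3. Per the study's methods, cells received no drug (control), 100 ng/ml lipopolysaccharide (LPS, a bacterial cell wall component that activates microglia) for 4 h, 10 µM of the plant cannabinoid cannabidiol (CBD) or tetrahydrocannabinol (THC) for 6 h, or either cannabinoid starting 2 h ahead of LPS (CBD+LPS and THC+LPS). No genotype differs between the groups, and every sample comes from the same line. The labels do not say whether the 3 samples of a group came from separate cultures. The p-values therefore weigh differences against the spread between these samples, which may not be that between separate cultures.

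A miRNA gene is transcribed as a long precursor, which is cut to a hairpin and then to a short duplex. One strand of the duplex is mostly loaded into an Argonaute protein and represses mRNAs that pair with its seed (bases 2 to 8), and the other strand is mostly degraded. miR-21 is among the most abundant miRNAs of many cell types. In macrophages and microglia it is known as a miRNA induced by Toll-like receptor signalling, the pathway that LPS engages, and as a repressor of Pdcd4, an inhibitor of translation with a role in inflammatory signalling.

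The mature sequences are shown because the arms and their relatives are read apart by sequence, and because the seed is the part that pairs with mRNAs. In GRCm38 coordinates from RefSeq, both arms lie on the minus strand of chromosome 11, miR-21a-5p at chr11:86584120-86584141 and miR-21a-3p at chr11:86584082-86584103, and each is 22 bases long. In the 92-base hairpin (chr11:86584067-86584158) they take positions 18 to 39 and 56 to 77. In GENCODE M21 the hairpin lies within exon 12 of Vmp1, the last exon of this gene for a membrane protein of autophagy, in its 3′ untranslated region and on the same strand. The 2 arms and their only named relatives, miR-21b from chromosome 3 and miR-21c from chromosome 8, are written 5′ to 3′ with the seed in capitals.
mmu-miR-21a-5p: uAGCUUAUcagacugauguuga
mmu-miR-21a-3p: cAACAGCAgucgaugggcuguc
mmu-miR-21b: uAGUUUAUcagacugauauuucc
mmu-miR-21c: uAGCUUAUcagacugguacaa

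Among 1679 RefSeq mature mouse miRNAs, only miR-21c had the seed of miR-21a-5p, and none had that of miR-21a-3p. miR-21c is identical to miR-21a-5p over the first 15 bases and differs at 5 of the 21 positions compared, and miR-21b differs at 4 of 22. No other miRNA was compared with miR-21a-5p over the whole sequence. The relatives were barely detected. miR-21c was listed with 78 reads over all samples (0 to 9 per sample) and miR-21b with 10, against 418334 for miR-21a-5p. The hairpins mir-21b and mir-21c had 49 and 14 reads. Of the 1279 mature miRNAs in the files, 1029 had a sequence to compare, and among these no other shared either seed.

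The samples held between 442718 and 1057147 recovered reads (median 773271), with a median of 660003 in the 9 samples without LPS and 842970 in the 9 with LPS. Levels are given as CPM, reads scaled to a common library size and by a factor for library composition. A count of 3 reads, taken as the floor for counting error only, amounts to 2.98 to 6.38 CPM, depending on the sample. miR-142-5p and miR-142-3p, which mark the blood lineage to which microglia belong, were present at 7254 to 12350 and 1486 to 3318 CPM, whereas miR-124-3p of neurons and miR-122-5p of hepatocytes stayed at or under 2.87 CPM. miR-223-3p, also of the blood lineage, was at 48.5 to 178 CPM. Of the epithelial list, miR-141-3p was at 5525 to 8978 CPM, whereas miR-200b-3p (83.5 to 243 CPM), miR-200a-3p (13.9 to 52.7) and miR-200c-3p (4.30 to 26.7) were far lower. Endothelial miR-126-3p was at 72.1 to 161 CPM, and of the oligodendrocyte list miR-338-3p was at 30.5 to 145.9 and miR-219-5p at 0 to 9.46 CPM. The summed level of the 3 muscle miRNAs was at most 4.74 CPM. Together, mir-6243, mir-6240 and mir-6236, which are 3 abundant hairpins, took 0.151% to 0.361% of the reads in the samples numbered 22 (control), 27 (THC+LPS), 30 and 36 (both CBD) and 1.20% to 4.56% in the other 14.

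miR-21a-5p, the main strand, was one of the most abundant miRNAs of these cells and was 2.11-fold higher in LPS than in control samples. Its level in the 3 control samples was 18555, 21046 and 20936 CPM, and in the 3 LPS samples 40674, 42682 and 44087 CPM. In the CBD samples it was 19620, 24935 and 25279 CPM, and in the THC samples 14844, 24126 and 27020 CPM. The CBD+LPS samples had 30648, 35188 and 36785 CPM, and the THC+LPS samples 33957, 41491 and 41614 CPM. All 9 samples with LPS thus lay above all 9 without it, the nearest being a CBD+LPS sample at 30648 and a THC sample at 27020 CPM.

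By group mean the order for miR-21a-5p was control (20179 ± 1407 CPM, SD, n = 3), THC (21997 ± 6361), CBD (23278 ± 3173), CBD+LPS (34207 ± 3184), THC+LPS (39021 ± 4386) and LPS (42481 ± 1715). Ranges of neighbours in this order overlapped, except between CBD and CBD+LPS. The strand took 1.91% to 2.59% of all reads in samples without LPS and 3.16% to 4.19% in those with it, and it ranked 9th to 11th and 6th to 8th, respectively, among the mature miRNAs. Each sample held 8725 to 42805 of its reads, so the counting error of a sample, 0.536% to 0.906% on average per group, was far below the spread between samples of a group (coefficients of variation of 4.04% to 28.9%).

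In 6 of 6 groups the sample with the lowest miR-21a-5p level was the one numbered 22 to 27, at 0.580 to 0.938 times the mean of the other samples of its group. On the share of all reads, which leaves out the composition factor, this held in 4 of 6 groups, and in LPS and CBD+LPS the same sample was the highest. The labels do not say what the numbers stand for. Because each set of numbers (22 to 27, 28 to 33, 34 to 39) holds one sample of every group, the difference between sets is not one between treatments.

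**Figure D1:**
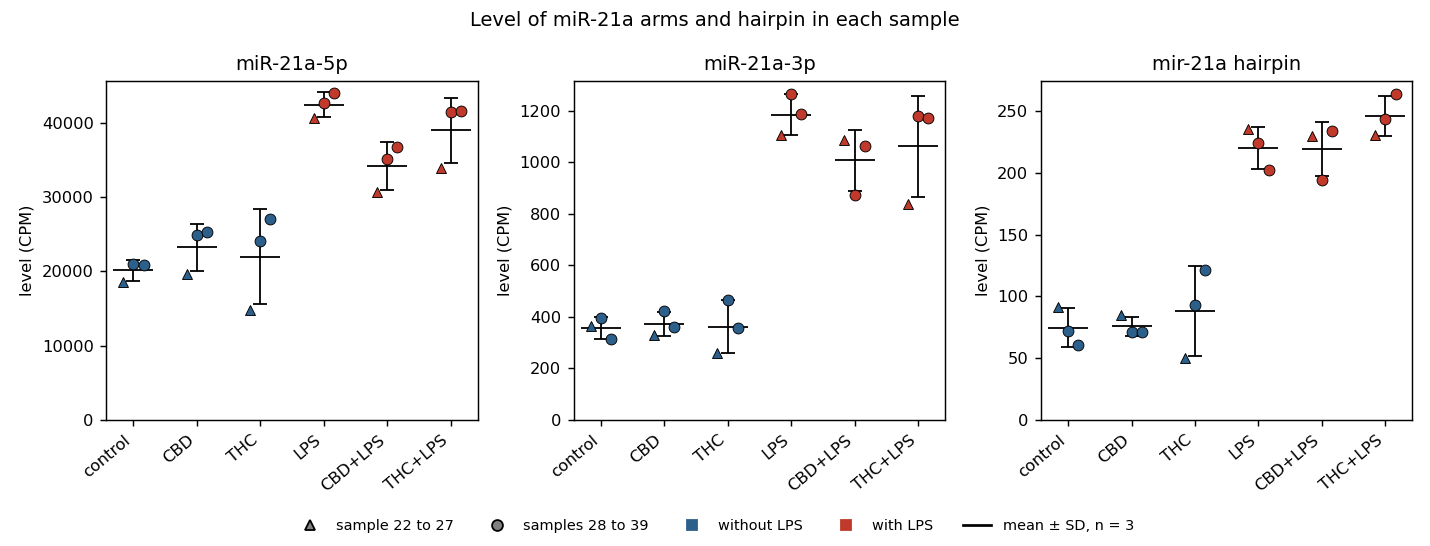
Level (CPM, linear axis from 0) of miR-21a-5p, miR-21a-3p and the mir-21a hairpin in each of the 18 samples by group, with LPS in red and without in blue; the horizontal mark and bars give the mean ± SD of 3 samples, and triangles are the samples numbered 22 to 27. In each panel all 9 samples with LPS sit above all 9 without it, and in the left panel the triangle is the lowest point of every group.

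miR-21a-3p, the minor strand, was 3.32-fold higher in LPS than in control samples. It was listed at 366, 395 and 312 CPM in control and at 1106, 1266 and 1186 CPM in LPS. In CBD it was at 330, 424 and 362 CPM and in CBD+LPS at 1087, 873 and 1064 CPM. In THC it was at 261, 466 and 357 CPM and in THC+LPS at 837, 1178 and 1171 CPM. The lowest sample with LPS (837 CPM) had 1.80 times the level of the highest one without (466 CPM), against 1.13 times for miR-21a-5p. The group means without LPS, 358 ± 42.0 CPM in control, 361 ± 103 in THC and 372 ± 48.1 in CBD, lay within each other's SD, as did those of CBD+LPS (1008 ± 118) and THC+LPS (1062 ± 195), with LPS the highest at 1186 ± 79.7 CPM. The rank of miR-21a-3p among mature miRNAs was 106 to 124 without LPS and 68 to 89 with it.

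The mir-21a hairpin row held far fewer reads, 38 to 230 per sample. Its level was 91.4, 71.8 and 60.6 CPM in control and 235, 224 and 202 CPM in LPS. In CBD it was 84.6, 71.4 and 71.1 CPM and in CBD+LPS 230.1, 194 and 234 CPM. In THC it was 49.7, 93.2 and 122 CPM, and in THC+LPS 231, 243 and 264 CPM. Here too the 9 samples with LPS (194 CPM or more) lay above the other 9 (122 CPM or less). Of the 1363 features with at least 10 reads in all, which include the 3 of miR-21a, 13 (0.954%) separated the 2 sets of 9 samples in this way with higher levels under LPS, and 0 with lower ones. For the hairpin, counting error alone amounted to 7.43% to 14.8%, against a spread between samples of 6.68% to 41.0%, so in several groups the counts themselves set much of the precision.

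The first question was how LPS changed miR-21a with and without a cannabinoid. Differences are given on the log2(CPM + 1) scale with their standard error (SE), from limma with Benjamini-Hochberg adjustment over the 1363 features, and a difference was called where the adjusted p did not exceed 0.1. In LPS against control all 3 features were called higher, where 0.954% of all features were. miR-21a-3p was higher by 1.73 (SE 0.22, adjusted p = 0.000111), that is, 3.32-fold. The hairpin was higher by 1.57 (SE 0.27, adjusted p = 0.00594), or 2.96-fold, and miR-21a-5p by 1.08 (SE 0.19, adjusted p = 0.00656), or 2.11-fold. The median difference over all features in this comparison was 0.11.

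In cells given CBD, LPS was followed by higher miR-21a-3p (1.44, SE 0.22, adjusted p = 0.0013) and a higher hairpin (1.52, SE 0.27, adjusted p = 0.00692), where 0.66% of features were called higher. miR-21a-5p did not pass in this comparison. Its difference was 0.56 (SE 0.19, 95% interval 0.16 to 0.96, adjusted p = 0.323). The 3 samples of each group did not overlap, but how many features keep these groups of 3 apart was not counted. The miR-21a-5p difference was called under 5 of 16 alternatives. Among these were the fit with the 3 sets of sample numbers as a block (0.56, adjusted p = 0.0445), library size as the only scaling (0.49, adjusted p = 0.0788) and DESeq2 (0.62, adjusted p = 0.0233).

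In cells given THC all 3 features were called higher with LPS, against 0.734% of all features. The differences were 1.58 for miR-21a-3p (SE 0.22, adjusted p = 0.000394), 1.56 for the hairpin (SE 0.27, adjusted p = 0.00522) and 0.87 for miR-21a-5p (SE 0.19, adjusted p = 0.0388). The last of these rested on single samples. Without THC sample 25, the lowest of its group, it was 0.61 (adjusted p = 0.201), and without THC+LPS sample 33 or 39 it was 0.82 in both cases (adjusted p = 0.259 and 0.215). Scaled by the study's reference miRNAs, neither miR-21a-5p (0.51, adjusted p = 0.203) nor the hairpin (1.21, adjusted p = 0.147) passed with THC.

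Against control, which the LPS comparison also uses, THC+LPS had higher miR-21a-3p (1.56, adjusted p = 0.000463), hairpin (1.73, adjusted p = 0.00187) and miR-21a-5p (0.95, adjusted p = 0.0197), where 0.734% of features were called higher. The miR-21a-5p call was lost without control sample 22 (0.89, adjusted p = 0.126) or THC+LPS sample 33 or 39 (both 0.90, adjusted p = 0.149 and 0.134). CBD+LPS had higher miR-21a-3p (1.49, adjusted p = 0.000804) and hairpin (1.56, adjusted p = 0.00635), where 0.367% of features were called higher, and its miR-21a-5p differed by 0.76 without passing (95% interval 0.36 to 1.16, adjusted p = 0.130), but was called under 10 of 16 alternatives, the block of number sets among them (0.76, adjusted p = 0.00648). The study marks miR-21a-5p as raised in CBD+LPS against control by its own cut-off.

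With the 9 samples with LPS set against the 9 without, and the cannabinoid as a second term, the 3 features were among the 18 (1.32%) called higher, and 3 features (0.22%) were called lower. miR-21a-3p was higher by 1.58 (SE 0.12, adjusted p = 2.04e-08) and ranked 4th of 1363 by p. The hairpin was higher by 1.55 (SE 0.15, adjusted p = 6.98e-07, 5th) and miR-21a-5p by 0.83 (SE 0.12, adjusted p = 0.000102, 10th), as 2.93-fold and 1.78-fold changes. These calls held without any one sample, when the difference ranged from 1.52 to 1.64 for miR-21a-3p, from 1.45 to 1.63 for the hairpin and from 0.76 to 0.88 for miR-21a-5p. Across the 6 groups at once (F test), each of the 3 was called as well, as were 1.76% of features, with adjusted p of 1.23e-05, 0.000398 and 0.00506 for miR-21a-3p, the hairpin and miR-21a-5p.

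The balance between the strands shifted towards the minor one. In control samples there were 50.7, 53.3 and 67.0 reads of miR-21a-5p per read of miR-21a-3p, and in LPS samples 36.8, 33.7 and 37.2. In CBD the ratio was 59.5, 58.8 and 69.8 and in CBD+LPS 28.2, 40.3 and 34.6. In THC it was 57.0, 51.8 and 75.8 and in THC+LPS 40.6, 35.2 and 35.5. The 9 samples with LPS (28.2 to 40.6, mean 35.8 ± 3.7 SD) did not overlap the 9 without (50.7 to 75.8, mean 60.4 ± 8.7). For how many other miRNAs the arm ratio separates these samples was not counted. As a share of both arms, miR-21a-3p rose from 1.66% ± 0.22 to 2.75% ± 0.30 (SD, n = 9 each). The ratio is formed within a sample, so no scaling between samples enters it.

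The log2 of the arm ratio fell by 0.75 with LPS over the cannabinoids (SE 0.09, limma adjusted p = 4.11e-06 over 191 miRNAs with both arms measured), where 3.14% of these miRNAs were called lower. An exact permutation test, 2-sided and within each cannabinoid background, gave p = 0.00025, the smallest that its 8000 arrangements allow, or 0.00075 adjusted over the 3 ratios tested in this way. Within the backgrounds the ratio fell by 0.65 without a cannabinoid (adjusted p = 0.0306, with 2.09% of miRNAs called lower), by 0.87 with CBD (adjusted p = 0.00253, with 2.62%) and by 0.71 with THC (adjusted p = 0.0269, with 1.05%). The first of these calls was lost without LPS sample 29 (-0.61, adjusted p = 0.184) or control sample 34 (-0.53, adjusted p = 0.217). The THC call was lost without THC+LPS sample 33 (-0.67, adjusted p = 0.172) or 39 (-0.68, adjusted p = 0.110) or THC sample 37 (-0.55, adjusted p = 0.192), and both were lost without the mean-variance trend (adjusted p = 0.251 and 0.242), whereas the CBD call and the pooled one held without any one sample and without the trend. No difference in the LPS effect on the ratio between backgrounds was called, with interaction terms of -0.22 for CBD (95% interval -0.70 to 0.26) and -0.06 for THC (-0.54 to 0.42).

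**Figure D2:**
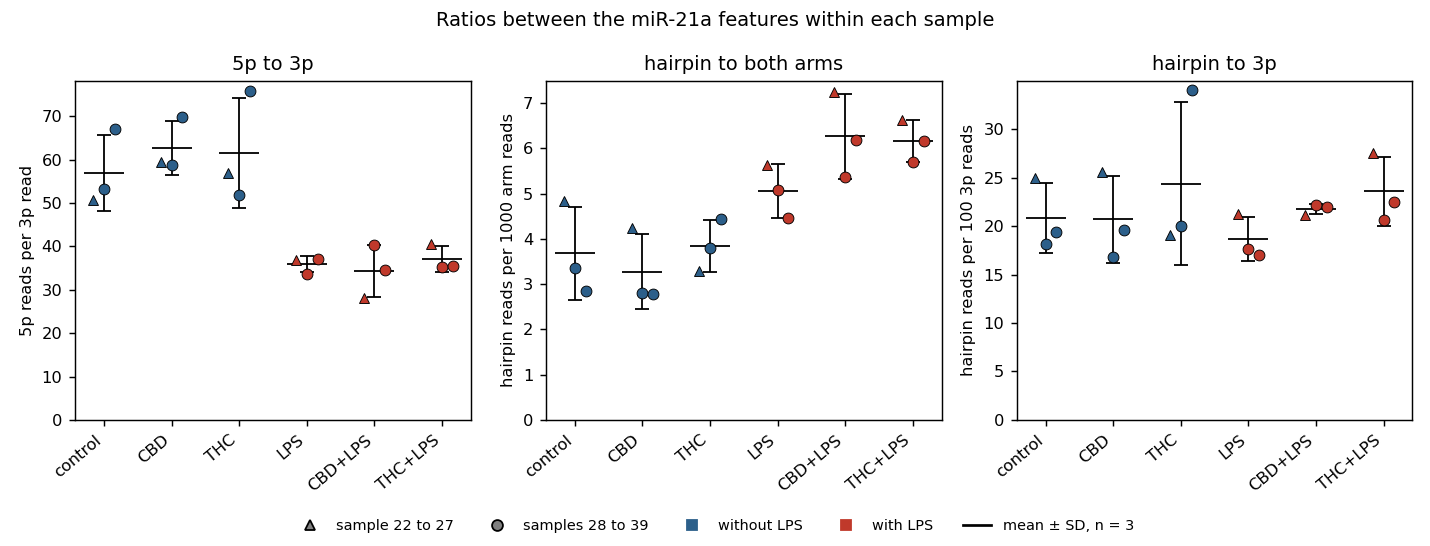
Ratios within each sample (linear axes from 0), from left to right miR-21a-5p reads per miR-21a-3p read, hairpin reads per 1000 reads of both arms and hairpin reads per 100 miR-21a-3p reads; points are samples, and the mark and bars are the mean ± SD of 3 samples. The first ratio is 28.2 to 40.6 with LPS and 50.7 to 75.8 without, and the second is higher on average with LPS. The ranges of the third overlap, at 17.0 to 27.6 with LPS and 16.8 to 34.1 without.

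The hairpin rose relative to the 2 arms together, and no change relative to the minor strand was detected. Per 1000 reads of both arms, the hairpin row held 4.83, 3.35 and 2.85 reads in control and 5.63, 5.09 and 4.46 in LPS. It held 4.24, 2.81 and 2.77 in CBD and 7.25, 5.38 and 6.18 in CBD+LPS, and 3.29, 3.79 and 4.44 in THC and 6.64, 5.71 and 6.16 in THC+LPS. The sets with LPS (mean 5.83 ± 0.84) and without (3.60 ± 0.77) overlapped between an LPS sample at 4.46 and a control sample at 4.83. The pooled log2 ratio was higher by 0.69 with LPS (SE 0.13, adjusted p = 0.00139 over 174 miRNAs, of which 2.87% were called higher; exact permutation p = 0.0005, 0.00075 adjusted over the 3 ratios).

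In single backgrounds the hairpin ratio was called with CBD (0.93, adjusted p = 0.0248, with 2.3% of miRNAs called higher, but 0.84 with adjusted p = 0.171 without CBD sample 30 and 0.83 with adjusted p = 0.109 without CBD sample 36). It was not called with THC (0.68, adjusted p = 0.203) or without a cannabinoid (0.47, 95% interval 0.00 to 0.93, adjusted p = 0.465). Against miR-21a-3p alone, a ratio added after the data were seen, the hairpin row held 21.3 ± 3.0 reads per 100 with LPS and 21.99 ± 5.4 without (SD, n = 9 each). That log2 difference was -0.04 (95% interval -0.32 to 0.24, exact permutation p = 0.761). Differences within this interval are compatible with these samples, and the p does not show that the 2 moved alike.

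miR-21a is a miRNA of strong strand bias among those measured. Over the reads of the samples without LPS, it had 60.3 reads of the 5p arm per read of the 3p arm, above 171 of the 191 miRNAs, whose median was 1. Its hairpin row held 3.57 reads per 1000 arm reads, above only 17 of 174 miRNAs (median 51.9). How a read was given to the hairpin row or to an arm is not given in the sources used here, so hairpin levels are those of the row as listed.

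The second question was whether CBD or THC changed miR-21a on its own or altered its response to LPS. No difference between groups that share their LPS state was called for any of the 3 features. In resting cells CBD differed from control by 0.20 for miR-21a-5p (95% interval -0.20 to 0.60), 0.06 for miR-21a-3p (-0.40 to 0.51) and 0.04 for the hairpin (-0.54 to 0.61), with 0.44% of features called higher. THC differed from control by 0.08 (-0.32 to 0.48), -0.02 (-0.47 to 0.43) and 0.17 (-0.41 to 0.74), with 0% of features called by limma, 0 by edgeR and 46 at an unadjusted p under 0.05. For the minor strand and the hairpin these intervals end below the differences seen with LPS.

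With LPS present, miR-21a-5p was lower with CBD in every sample, 30648 to 36785 CPM in CBD+LPS against 40674 to 44087 CPM in LPS, but the difference did not pass. It was -0.32 (SE 0.19, 95% interval -0.72 to 0.09, adjusted p = 0.99996), with 0 of 1363 features called in this comparison by limma or edgeR and 44 at an unadjusted p under 0.05. The median difference over all features was -0.05, and how many features keep these groups of 3 apart was not counted. For miR-21a-3p the difference was -0.24 (-0.69 to 0.21) and for the hairpin -0.01 (-0.58 to 0.56). THC+LPS differed from LPS by -0.13 (-0.53 to 0.27), -0.17 (-0.63 to 0.28) and 0.16 (-0.41 to 0.73) for the 5p arm, the 3p arm and the hairpin, and the ranges of the 2 groups overlapped for miR-21a-5p. In that comparison, too, limma and edgeR called 0 features, and 32 had an unadjusted p under 0.05.

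Whether the effect of LPS on miR-21a-5p differs between cells with and without CBD was tested as an interaction in limma. It was -0.52, a smaller rise with CBD, and did not pass (SE 0.27, 95% interval -1.08 to 0.05, adjusted p = 0.979). No feature had a called CBD interaction by limma or edgeR, and 65 had an unadjusted p under 0.05. In the 12 samples numbered 28 to 39 alone the interaction was -0.53 and passed (adjusted p = 0.0243). In those 12, both CBD samples, 30 and 36, are among the 4 with a low share of the 3 abundant hairpins, and the part of this in the result was not tested. With the summed level of these hairpins as a covariate in all 18 samples the interaction was -0.50 and not called (adjusted p = 0.839). For the THC interaction the values were -0.21 for miR-21a-5p (-0.78 to 0.36), -0.16 for miR-21a-3p (-0.80 to 0.49) and -0.01 for the hairpin (-0.82 to 0.80).

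CBD and THC are isomers in which a ring that is closed in THC is open in CBD, and they were given at the same dose and for the same time. Compared directly in resting cells, CBD minus THC was 0.12 for miR-21a-5p (-0.28 to 0.52), 0.08 for miR-21a-3p (-0.38 to 0.53) and -0.13 for the hairpin (-0.70 to 0.44), where 0.44% of features were higher with CBD and 0.0734% lower. In LPS-treated cells it was -0.19 (-0.59 to 0.21), -0.06 (-0.52 to 0.39) and -0.17 (-0.74 to 0.40), with 0% of features called by limma, 0 by edgeR and 36 at an unadjusted p under 0.05. Neither comparison was called for a miR-21a feature at an adjusted p over all features (0.845 or more), and with 3 samples a group the intervals do not show that the compounds act alike.

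**Figure D3:**
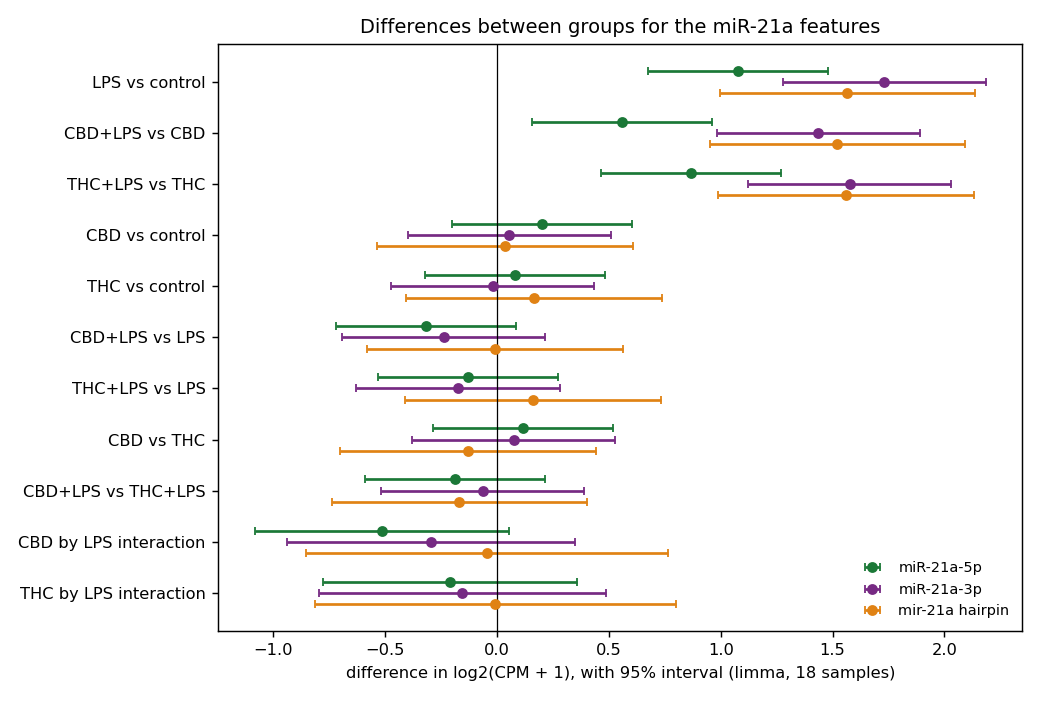
Differences in log2(CPM + 1) between groups with 95% intervals from limma over 18 samples, for miR-21a-5p (green), miR-21a-3p (purple) and the hairpin (orange). In the 3 LPS comparisons at the top every interval lies above 0, with the miR-21a-3p and hairpin points to the right of miR-21a-5p, whereas each cannabinoid comparison and interaction has an interval that spans 0.

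Other miRNAs of the same pathway were counted on a list of miRNAs known to be induced by Toll-like receptor signalling, which names both arms and hairpins of miR-155, miR-146a, miR-146b, miR-132, miR-212, miR-147, miR-9, miR-187, miR-221, miR-222, miR-125a, miR-99b and let-7e. Of 36 tested features of that list, 10 (27.8%) were called higher with LPS over the cannabinoids and 0 lower by limma (3 lower at an unadjusted p under 0.05, the let-7e hairpin and both arms of miR-212), beside 1.32% of all features, and the median difference was 0.29 beside 0.03 over all features. In LPS against control 6 (16.7%) were called higher, beside 0.954% of all features, in CBD+LPS against CBD 7 (19.4%), beside 0.66%, and in THC+LPS against THC 4 (11.1%), beside 0.734%. The called ones were the 3 features of miR-155, which restrains negative regulators of inflammatory signalling, both arms of miR-146a, which represses adaptors of the receptors, all 3 features of miR-221, which represses the cell-cycle inhibitor Cdkn1b, and the hairpin and 5p arm of miR-222. miR-155-5p had the largest fold of a main strand among them, from 916 ± 344 to 8301 ± 840 CPM (SD, n = 9 each). miR-146a-5p went from 6492 ± 1721 to 10798 ± 1476 CPM, a log2 difference of 0.77 (adjusted p = 0.00671), near the 0.83 of miR-21a-5p. The list was chosen with earlier results of these data known. The study itself reports features of miR-155, miR-146a, miR-221 and miR-222 as raised by LPS in these samples, as it does the 3 features of miR-21a. Arms and hairpin of one miRNA also count as separate features. The shares of the list therefore describe it and do not test the pathway.

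An arm ratio that moved with LPS was uncommon. Of 191 miRNAs, 6 (3.14%) had a lower 5p to 3p ratio with LPS over the cannabinoids and 2 (1.05%) a higher one, and miR-21a had the second smallest p. miR-155 was first, with a log2 ratio lower by 1.53 (SE 0.15, adjusted p = 1.91e-07), and its minor strand miR-155-3p went from 13.7 ± 4.6 to 406 ± 63.1 CPM. The ratio of miR-20a, a miRNA encoded in one cluster with miR-17, fell by 0.83 (adjusted p = 5.60e-05). There the minor strand miR-20a-3p went from 207 ± 33.3 to 359 ± 53.9 CPM, while miR-20a-5p was at 1849 ± 305 and 1795 ± 256 CPM. The ratios of miR-222 and miR-221, whose minor strand is the 5p arm, rose by 0.60 and 0.56 (adjusted p = 0.000253 and 0.00234).

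The remaining 3, miR-25, miR-146a and miR-27a, were outside the rule for named miRNAs, and were named after their values were seen. In 6 of the 8 miRNAs the less abundant arm gained on the other, as in miR-21a, and in miR-25 and miR-27a it lost. These 8 were picked because their ratio moved, and the direction over the other miRNAs was not counted. Both arms were called higher in miR-155, miR-21a, miR-221 and miR-146a. miR-25-5p alone was called lower, from 144 ± 49.3 to 61.6 ± 24.9 CPM.

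**Figure D4:**
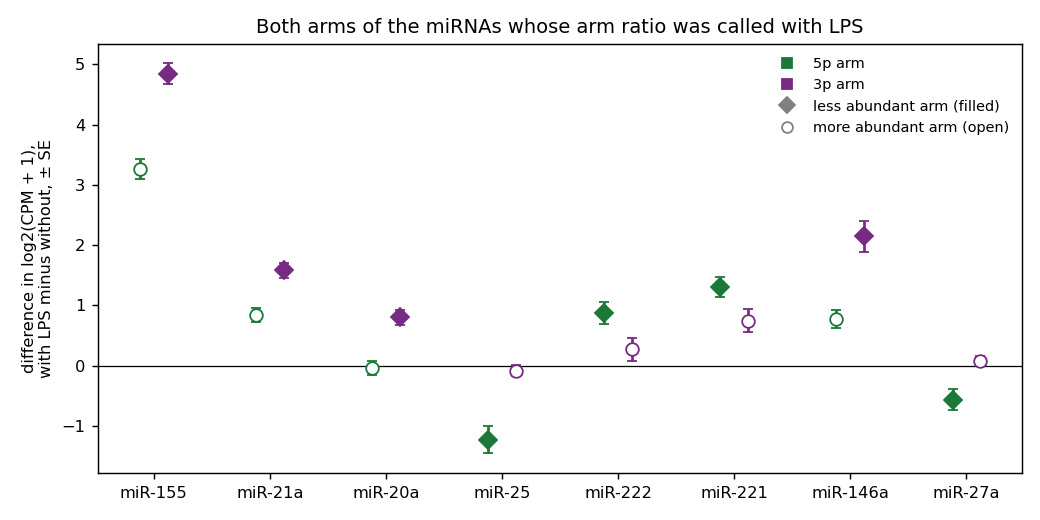
Difference in log2(CPM + 1) between the 9 samples with LPS and the 9 without (± SE, limma with the cannabinoid as a second term) for the 5p arm (green) and 3p arm (purple) of the 8 miRNAs with a called arm ratio; filled diamonds are the less abundant arm and open circles the more abundant one. For miR-21a the points are 0.83 (5p) and 1.58 (3p), and in 6 of the 8 miRNAs the filled diamond is above the open circle.

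The features whose log2(CPM + 1) was most like that of miR-21a over the 18 samples were found among 591 others with a mean of at least 10 CPM. For miR-21a-5p they were miR-20a-3p (Pearson r = 0.97), miR-145a-3p (0.96), mir-222 (0.91), mir-221 (0.89) and miR-221-5p (0.88). For miR-21a-3p they were miR-155-3p (0.95), miR-155-5p (0.94), miR-20a-3p (0.93), miR-145a-3p (0.92) and miR-221-5p (0.92). For the hairpin they were miR-155-3p (0.93), miR-145a-3p (0.91), miR-155-5p (0.91), mir-222 (0.90) and miR-20a-3p (0.89). These values span samples with and without LPS, and each of these features was called higher with LPS over the cannabinoids. The libraries are also shared by both sides of each correlation.

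The features above, picked over all 18 samples, were also compared within the 9 samples of one LPS state, and others were not. There, miR-20a-3p kept a correlation of 0.88 with miR-21a-5p both with and without LPS, and miR-145a-3p had 0.60 and 0.88. The miR-155 arms did not keep theirs. With LPS, r was 0.53 for miR-155-3p and 0.03 for miR-155-5p against miR-21a-3p, and without LPS -0.62 and -0.06. The arms of miR-21a had 0.67 and 0.70 with each other, and the hairpin had 0.33 and 0.54 with miR-21a-3p and 0.10 and 0.61 with miR-21a-5p, in the samples with and without LPS. Of the study's reference miRNAs, neither miR-103-3p (0.11) nor miR-191-5p (0.25) had a called difference with LPS over the cannabinoids.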

How the data were processed

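The values the authors deposited are CPM, one file per sample. Per the study's methods and the submitters' processing notes, reads from a single pool of 18 libraries (Illumina HiSeq) were aligned with BWA to the mouse sequences of miRBase with at most 10 mappings per read, and edgeR was used. The BWA and miRBase versions of the alignment, and whether a read with several mappings counted on each feature, are not given in the sources used here. The deposited values proved to be reads divided by library size times edgeR's TMM factor (0.886 to 1.28, relative deviation at most 4.86e-10). In 11 files they sum to over 1000000, so the deposited unit was recorded there as a signal, although the quantity is the same. No 2 samples of a group differed by less than the sampling noise (chi-square per degree of freedom of 3.04 or more). Pairs of a group among samples 28 to 39 were at 3.04 (LPS) to 9.73 (THC), except the control pair at 51.6. Pairs with a sample numbered 22 to 27 were at 41.3 (a CBD pair) to 98.55 (a THC pair). The samples of a group were thus unevenly alike, and the main fits held no term for the sets of numbers. Whole reads were recovered for 100% of values (tolerance 0.01 read).

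From these, log2(CPM + 1) of the 1363 features with at least 10 reads was tested with limma 3.58.1 (mean-variance trend, R 4.3.3), in a model of 6 groups or, for LPS over the cannabinoids, with LPS and cannabinoid as additive terms. Tests were 2-sided and called at a Benjamini-Hochberg adjusted p of at most 0.1. Ratios used reads + 1 and Python 3.11.15 served for exact permutations. Shares carry Wilson 95% intervals in the tables, and intervals and floors cover counting error only. Sequences are RefSeq's for GRCm38.p6, which held 1029 of the listed features. On simulated data for LPS against control with 1363 features, limma recovered 63.5% of 200 features changed 4-fold, and 95.9% of those with a mean of at least 10 reads, with 9 false calls. The simulation gave all features one dispersion and no difference between the sets of sample numbers. Its planted change was also larger than the changes of miR-21a, so these rates are not those of the real data.

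The members, gene lists and tests were chosen with earlier results of these data known. Named were the 3 features, relatives by seed or name, the 5 most correlated features of each, the 3 smallest p per direction of the arm-ratio fit, and called members of the Toll-like receptor list. Alternatives covered scaling, filters, pseudocounts, edgeR 4.0.16 and DESeq2 1.42.0 on recovered reads, covariates and samples left out.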

Additional observations from a re-analysis of the deposited data

How the results depend on the processing

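Of 801 alternatives other than leaving out a sample, 732 were the same as the main result. For tests this means the same side of the threshold and, for differences, the same direction. For counts of called features and shares of reads it means a value within a set margin of the main one. The 30 reversals were all of differences that were not called. The pooled LPS calls of the 3 features held under each alternative run, over ranges of 1.40 to 1.58 (miR-21a-3p), 1.37 to 1.57 (hairpin) and 0.66 to 0.86 (miR-21a-5p), as did LPS against control (1.52 to 1.80, 1.36 to 1.67 and 0.86 to 1.08). Where a call changed, the cause was not tested.

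Calls were gained in 2 comparisons for miR-21a-5p. CBD+LPS against CBD passed with library size alone (0.49), the reference miRNAs (0.59), samples 28 to 39 alone (0.52), the sets of numbers as a block (0.56) and DESeq2 (0.62), over adjusted p from 0.00161 to 0.491 in all alternatives. CBD+LPS against control passed with DESeq2's size factors (0.74), library size alone (0.64), the reference miRNAs (0.60), filterByExpr, mature miRNAs alone, the study's criterion and the block (each 0.76), samples 28 to 39 (0.78), the composition covariate (0.77) and DESeq2 (0.74). In samples 28 to 39 alone, 3 further differences passed, namely miR-21a-5p in CBD against control (0.26), the hairpin in CBD against THC (-0.57) and the CBD interaction of miR-21a-5p (-0.53). The hairpin to arms ratio passed there without a cannabinoid (0.60), and with THC under the block (0.68) and for arms with at least 100 reads (0.68).

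Calls were lost in others. THC+LPS against THC lost the hairpin with the reference miRNAs (1.21) and with only the 2 groups in the fit (1.56), and miR-21a-5p with the reference miRNAs (0.51), without the mean-variance trend (0.87) and with only the 2 groups (0.87). CBD+LPS against control lost the hairpin with only the 2 groups (1.56). Without the trend, miR-21a-5p was lost in THC+LPS against control (0.95) and across the 6 groups (adjusted p = 0.119), as was the arm ratio without a cannabinoid (-0.65) and with THC (-0.71). The reference miRNAs moved the median of all features in THC+LPS against THC from -0.04 to -0.35.

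Signs turned for uncalled differences near 0. With DESeq2's size factors and DESeq2, CBD against control was -0.049 and -0.040 for the hairpin and -0.030 and -0.026 for miR-21a-3p, the hairpin interaction with CBD was 0.12 and 0.12, and the hairpin in CBD+LPS against LPS was 0.074 and 0.082. With DESeq2 CBD against THC was -0.0073 for miR-21a-3p. With the size factors CBD+LPS against THC+LPS was 0.00043 for miR-21a-3p and the hairpin interaction with THC was 0.038. With library size alone the hairpin had -0.013 in CBD against control, 0.026 in CBD+LPS against LPS and 0.039 for the CBD interaction. With the reference miRNAs, CBD against control was -0.15 (hairpin) and -0.14 (miR-21a-3p), THC against control 0.065 (miR-21a-3p), CBD+LPS against LPS 0.042 (hairpin), CBD against THC -0.20 (miR-21a-3p) and -0.16 (miR-21a-5p), CBD+LPS against THC+LPS 0.043 (miR-21a-3p) and the CBD interaction 0.19 (hairpin). With the composition covariate the hairpin had -0.034 in CBD against control and 0.023 for the CBD interaction. edgeR's test gave 0.014 for miR-21a-3p in THC against control. In samples 28 to 39 alone, THC against control was 0.21 (miR-21a-3p), CBD+LPS against LPS 0.0031 (hairpin), CBD against THC -0.057 (miR-21a-3p) and -0.024 (miR-21a-5p), and the THC interaction of the hairpin to arms ratio -0.081.

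With reads on mature miRNAs as the denominator, miR-21a-5p had a mean share of 2.47% (control), 2.64% (CBD) and 2.66% (THC) among the groups without LPS, and 4.61% (LPS alone), 3.80% (after CBD) and 4.22% (after THC) among those with it. The pooled LPS comparison called 21 features, 32 in samples 28 to 39 alone and 33 with the block. The labels give each sample a number of its own and pair no samples, so the block rests on runs of consecutive numbers, whose meaning is not stated.

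Leaving out each sample in turn, the uncalled differences that turned sign ranged, in CBD against control, from -0.043 to 0.14 (miR-21a-3p) and -0.10 to 0.19 (hairpin), in THC against control from -0.22 to 0.20 (miR-21a-3p), -0.090 to 0.34 (miR-21a-5p) and -0.11 to 0.53 (hairpin), and in CBD against THC from -0.14 to 0.28, -0.14 to 0.29 and -0.49 to 0.15. CBD+LPS against LPS ranged from -0.070 to 0.077 (hairpin) and CBD+LPS against THC+LPS from -0.23 to 0.036 (miR-21a-3p). The CBD interaction ranged from -0.20 to 0.093 (hairpin), and the THC interaction from -0.37 to 0.049 (miR-21a-3p), -0.37 to 0.27 (hairpin), -0.18 to 0.10 (arm ratio) and -0.0038 to 0.38 (hairpin to arms). Of the called differences that did not pass without some sample, miR-21a-5p ranged from 0.61 to 1.04 in THC+LPS against THC and from 0.89 to 1.04 in THC+LPS against control, the arm ratio from -0.73 to -0.53 without a cannabinoid and from -0.82 to -0.55 with THC, and the hairpin to arms ratio from 0.82 to 1.13 with CBD.

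At this depth the hairpin's 38 to 230 reads per sample limit what can be said of it, and miR-21b and miR-21c were too rare to compare.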

Other observations

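The mir-222 hairpin row, which followed the miR-21a-5p level most closely among hairpins other than mir-21a, was listed at 14547 ± 3645 CPM without LPS and 28008 ± 3332 CPM with it (SD, n = 9 each). Those levels are above both of its arms, since miR-222-3p was at 2187 ± 612 and 2616 ± 617 CPM and miR-222-5p at 372 ± 108 and 666 ± 118 CPM. Over the samples without LPS it held 5671 reads per 1000 arm reads, where the mir-21a hairpin held 3.57 and the median of 174 miRNAs was 51.9.

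The miR-146a-3p strand was listed at 5.59 ± 2.56 CPM without LPS and 27.02 ± 8.5 CPM with it (SD, n = 9 each), where 3 reads amount to between 2.98 and 6.38 CPM.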
